A study of Mus musculus with 8 samples.

Results

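The miR-30 family was described here through 7 of the 750 miRNA assays of a real-time PCR profile: mmu-miR-30a, mmu-miR-30b, mmu-miR-30c, mmu-miR-30d and mmu-miR-30e, whose names carry no arm and were taken as the 5p guide strands, and hsa-miR-30a-3p and hsa-miR-30e-3p, the opposite strands of the miR-30a and miR-30e hairpins. The members were picked by assay name, with earlier results of these data known. The RNA came from CD34+/CD105- cells that were sorted from collagenase-digested mouse renal artery, 1 mouse per sample. Of the 8 mice, 4 had sham surgery (sham mice 1 to 4) and 4 had both renal arteries clamped and then reperfused (ischemia/reperfusion mice 1 to 4), and the comparison asks how miRNA levels in these cells differ after renal ischemia/reperfusion. Strain, age, sex, clamping time and the time of harvest were not given in the sources used here.

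miRNAs are short RNAs that lower the output of messenger RNAs carrying a match to their seed, a short stretch near the 5′ end of the miRNA. The members of the miR-30 family share a seed and are made from several hairpins. They are abundant in the kidney, where podocytes and tubule cells express them. In endothelial cells miR-30 is known to repress the Notch ligand Dll4 and so to affect vessel sprouting, and in heart fibroblasts and muscle cells it is known to repress connective tissue growth factor.

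The mature sequences are shown because they say which assays can be expected to share targets and which assays are hardest to tell apart. RefSeq sequences on GRCm38.p6 were matched by name for 5 of the 7 members, and mmu-miR-30b and mmu-miR-30d are given by name only. The assays named hsa are shown by the mouse strand of that name. Capitals mark the seed, bases 2 to 8.
mmu-miR-30a-5p: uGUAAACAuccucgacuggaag
mmu-miR-30c-5p: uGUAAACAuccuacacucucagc
mmu-miR-30e-5p: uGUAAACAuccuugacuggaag
mmu-miR-30a-3p: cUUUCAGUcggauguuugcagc
mmu-miR-30e-3p: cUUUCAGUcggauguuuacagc

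The 3 guide strands share the seed GUAAACA, and the 2 strands of the other arm share the seed UUUCAGU, so the family splits into 2 seed groups by arm. Counting from 1 at the 5′ end, miR-30a-5p and miR-30e-5p differ by C13U alone, and miR-30a-3p and miR-30e-3p by G18A alone. Over the 22 bases compared, miR-30c-5p differs from miR-30a-5p at 5 positions, with the first 12 bases shared. Whether an assay for 1 of these strands also reads its near-identical relative was not tested. Of 1679 mature mouse miRNA names in the same table, 4 have the guide seed. miR-30b and miR-30d have no sequence there, so this count does not cover them. The fourth, mmu-miR-384-5p, had no well below Ct 35 in any of the 8 mice.

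The hairpins of miR-30a and miR-30e are shown because each carries a pair of members, one on each arm. Capitals mark the mature strands, the 5p strand first.
Mir30a: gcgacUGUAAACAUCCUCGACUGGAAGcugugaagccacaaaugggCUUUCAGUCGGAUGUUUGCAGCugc
Mir30e: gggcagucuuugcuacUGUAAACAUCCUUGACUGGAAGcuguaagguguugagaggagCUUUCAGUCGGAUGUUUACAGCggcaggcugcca

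On GRCm38.p6, Mir30a lies at chr1:23272269-23272339 on the plus strand, and Mir30c-2 lies 19361 bases further at chr1:23291701-23291784. Mir30e lies at chr4:120772606-120772697 on the minus strand and Mir30c-1 at chr4:120769534-120769622, with 2983 bases between them, both inside the span of Nfyc, which encodes a subunit of the transcription factor NF-Y. Mir30b lies at chr15:68337415-68337510 and Mir30d at chr15:68341208-68341289, with 3697 bases between them. Mir30a, Mir30c-2, Mir30b and Mir30d lie inside no other gene of the RefSeq table. miR-30c-5p is the same sequence from both of its hairpins, so its assay reads their sum.

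Each well gave a threshold cycle (Ct), and a lower Ct means more RNA. An assay counted as detected below Ct 35. Levels are given as minus delta Ct, the deposited reference value of the sample and card minus the Ct, so that higher values mean more RNA and 1 unit is a doubling if PCR is fully efficient. The card of an assay was inferred from the length of its catalogue number. By this, the 5 guide assays lie on a first card and the 2 assays of the 3p strands on a second. In the deposited delta Ct, each of these sets had a reference value of its own. Between 75 and 163 of the 750 miRNA assays were detected in the sham mice and between 82 and 98 in the ischemia/reperfusion mice. The lowest of these counts was that of sham mouse 2, so values without it are given where they moved by over 1.5 times. The endothelial strands miR-126-3p and miR-126-5p were detected in all 8 mice, the erythroid markers miR-451, miR-144 and miR-486 in none. Per mouse, 4 or 5 of the 6 leukocyte marker assays, 3 to 5 of the 6 fibroblast and mesenchymal, 1 to 3 of the 3 smooth muscle and 0 to 2 of the 6 striated muscle marker assays were detected. For the 54 miRNAs detected in every mouse, the sham mean Ct was 26.3 ± 1.54 and the ischemia/reperfusion mean Ct 28.0 ± 0.214 (SD, n = 4 each), and the reference of the first card was 1.39 cycles later after ischemia/reperfusion (exact two-sided permutation p = 0.286).

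In these cells, miR-30c, miR-30b and miR-30a were among the well-detected miRNAs, whereas the guide strands miR-30d and miR-30e were late or not detected. Of the 7 members, 5 were detected in all 8 mice: miR-30a, miR-30b, miR-30c, miR-30a-3p and miR-30e-3p. Of all 750 assays, 7.2% were. By mean Ct among the 54 miRNAs detected in every mouse, counted from the earliest, miR-30c ranked 10 (Ct 24.0), miR-30b 11 (Ct 24.4), miR-30a 18 (Ct 26.6), miR-30a-3p 25 (Ct 27.5) and miR-30e-3p 33 (Ct 28.2). Ct values of different assays also depend on each assay's efficiency, which was not given in the sources used here, so this order describes the readout.

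**Figure D1:**
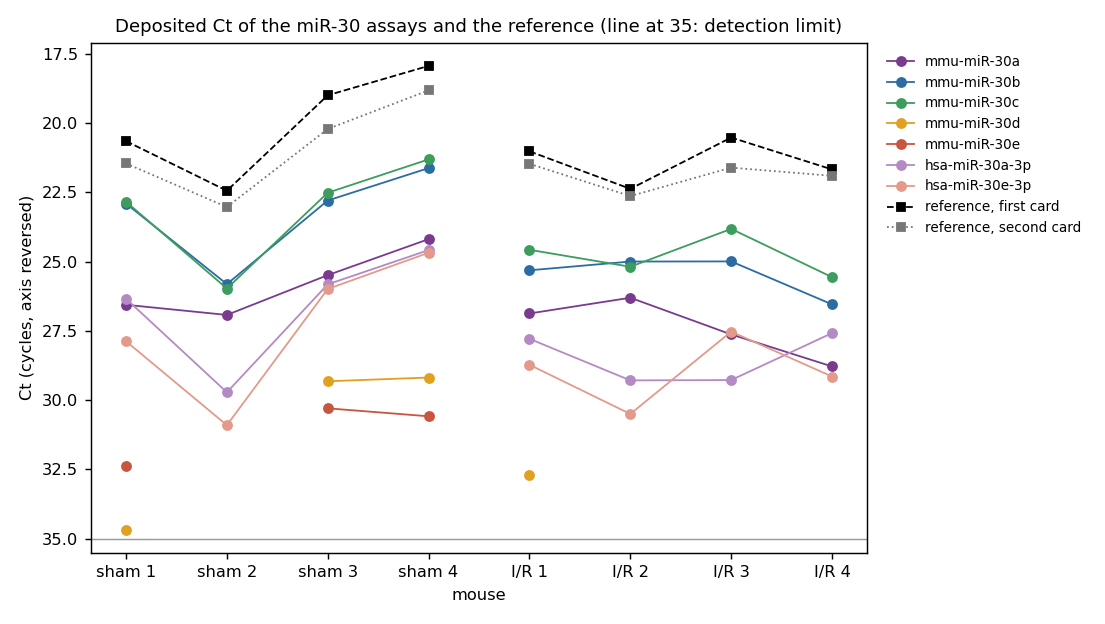
Deposited Ct (cycles, axis reversed so that more RNA is higher) of the 7 miR-30 assays and of the reference of each card in the 8 mice; lines join the mice of a group only to show which points belong to 1 assay, and wells at or above Ct 35 or without a Ct are not drawn. The miR-30b and miR-30c points lie within 0.31 cycles of each other in sham mice and up to 1.17 cycles apart after ischemia/reperfusion, and miR-30d and miR-30e appear in few mice.

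The order of neighbouring members was read within each mouse. miR-30c lay above miR-30b in 6 of 8 mice, with a mean difference of 0.40 ± 0.51 on the minus delta Ct scale (SD, n = 8). By group, miR-30b minus miR-30c was -0.13 ± 0.22 in sham mice and -0.68 ± 0.60 after ischemia/reperfusion (SD, n = 4 each). miR-30b lay above miR-30a in 8 of 8 mice, by between 1.11 and 3.65. miR-30a and miR-30a-3p, on different cards, had no fixed order, with miR-30a above in 4 of 8 mice (0.26 ± 1.53, SD, n = 8). miR-30a-3p lay above miR-30e-3p in 7 of 8 mice (0.62 ± 1.11, SD, n = 8). The SD here is the spread of single mice, and none of these means was tested against 0. The seldom detected guide strands miR-30d and miR-30e also had no fixed order, with miR-30d above in 2 of the 3 mice that had both.

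After ischemia/reperfusion, the 5 members that could be tested had lower mean levels than in sham mice, by 0.22 to 0.84 log2 units, and none passed the test. Lower means were common in these samples: 49 of the 72 tested miRNAs (68.1%) had one. The median log2 difference of the 5 members was -0.59, beside -0.80 over all 72, so the median of the members was the nearer to 0. Each miRNA was tested with limma if it was detected in at least 3 mice of each group, and p-values were adjusted over all 72 by Benjamini-Hochberg. limma gave 0 of 72 miRNAs past an adjusted p of 0.05 (0%) and 10 at an unadjusted p under 0.05 (13.9%), of which 0 were miR-30 members. An exact permutation test per miRNA also gave 0, with 2 at an unadjusted p under 0.05, and the smallest p it allows with 4 against 4 mice is 0.0286. The ischemia/reperfusion minus sham log2 difference of the endothelial markers was -1.59 for miR-126-3p and 0.11 for miR-126-5p. The 5 tested fibroblast and mesenchymal assays differed by -3.95 (mmu-miR-214) to -0.86 (hsa-miR-214), with -2.65 for miR-199a-3p, and the 1 tested smooth muscle assay, miR-145, by -2.09. The 4 tested leukocyte assays differed by -1.62 (miR-150) to 1.15 (hsa-miR-223). None of these passed an adjusted limma p of 0.05. Their part in the members' differences was not tested. In bulk samples such as these, fewer cells of a type and less RNA per cell cannot be told apart.

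**Figure D2:**
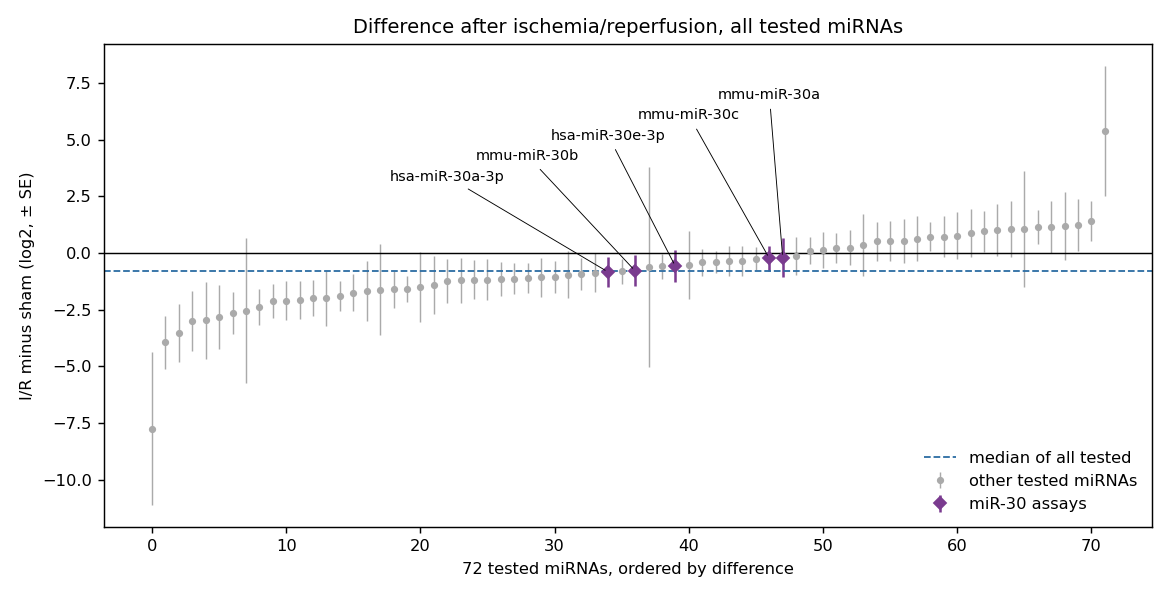
Log2 difference after ischemia/reperfusion (ischemia/reperfusion minus sham, minus delta Ct, with the SE from limma) of the 72 tested miRNAs in order of size; diamonds are the 5 tested miR-30 assays, and the dashed line is the median of all 72 at -0.80. The miR-30 assays lie in the middle of the order, between -0.84 and -0.22.

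miR-30a, the guide strand of Mir30a, was at -5.91, -4.48, -6.49 and -6.25 in sham mice 1 to 4. In ischemia/reperfusion mice 1 to 4 it was at -5.85, -3.93, -7.10 and -7.11. Mouse 2 was the highest in each group, and the sham values lay inside the range of the ischemia/reperfusion values. The log2 difference was -0.22 ± 0.86 (SE, n = 4 per group; limma adjusted p = 0.854), with a 95% interval from -2.17 to 1.74. Of the 5 tested members, it had the widest interval. The direction turned when sham mouse 2 was left out (0.22), and when mouse 3 (0.15) or mouse 4 (0.15) of the ischemia/reperfusion group was.

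miR-30c, which has 2 hairpins, was at -2.19, -3.53, -3.52 and -3.37 in sham mice 1 to 4. In ischemia/reperfusion mice 1 to 4 it was at -3.55, -2.81, -3.30 and -3.89. Sham mouse 1 stood above the other 7 mice, which spread over little more than 1 unit. The log2 difference was -0.24 ± 0.57 (SE, n = 4 per group; limma adjusted p = 0.785), with a 95% interval from -1.52 to 1.05. Without sham mouse 1 it was 0.086, and without sham mouse 2 it was -0.36. Over the 8 mice miR-30c had the smallest SD of the 5 members, 0.53 beside 0.86 to 1.15 for the others.

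miR-30b, the guide strand encoded beside miR-30d, was at -2.25, -3.37, -3.80 and -3.69 in sham mice 1 to 4. In ischemia/reperfusion mice 1 to 4 it was at -4.29, -2.62, -4.47 and -4.87. Ischemia/reperfusion mice 1, 3 and 4 lay below every sham mouse, while ischemia/reperfusion mouse 2 lay above 3 of them, so the groups overlapped. The log2 difference was -0.79 ± 0.68 (SE, n = 4 per group; limma adjusted p = 0.587), with a 95% interval from -2.34 to 0.77. Without ischemia/reperfusion mouse 2 the difference was -1.27, and without sham mouse 1 it was -0.45. Groups that did not overlap were seen for 5 of the 72 tested miRNAs (6.94%) and for 0 of the 5 members.

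The 3p strands also had lower means after ischemia/reperfusion. miR-30a-3p was at -4.88, -6.69, -5.61 and -5.76 in sham mice 1 to 4 and at -6.31, -6.65, -7.67 and -5.67 in ischemia/reperfusion mice 1 to 4. Sham mouse 2 was the lowest sham value, and ischemia/reperfusion mice 1, 2 and 4 lay inside the sham range. The log2 difference was -0.84 ± 0.65 (SE, n = 4 per group; limma adjusted p = 0.552), with a 95% interval from -2.33 to 0.64. miR-30e-3p was at -6.41, -7.87, -5.77 and -5.86 in sham mice 1 to 4 and at -7.25, -7.86, -5.92 and -7.24 in ischemia/reperfusion mice 1 to 4. The lowest value of both groups was that of mouse 2, and the groups overlapped. The log2 difference was -0.59 ± 0.70 (SE, n = 4 per group; limma adjusted p = 0.626), with a 95% interval from -2.18 to 1.00. Without sham mouse 2 it was -1.05.

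**Figure D3:**
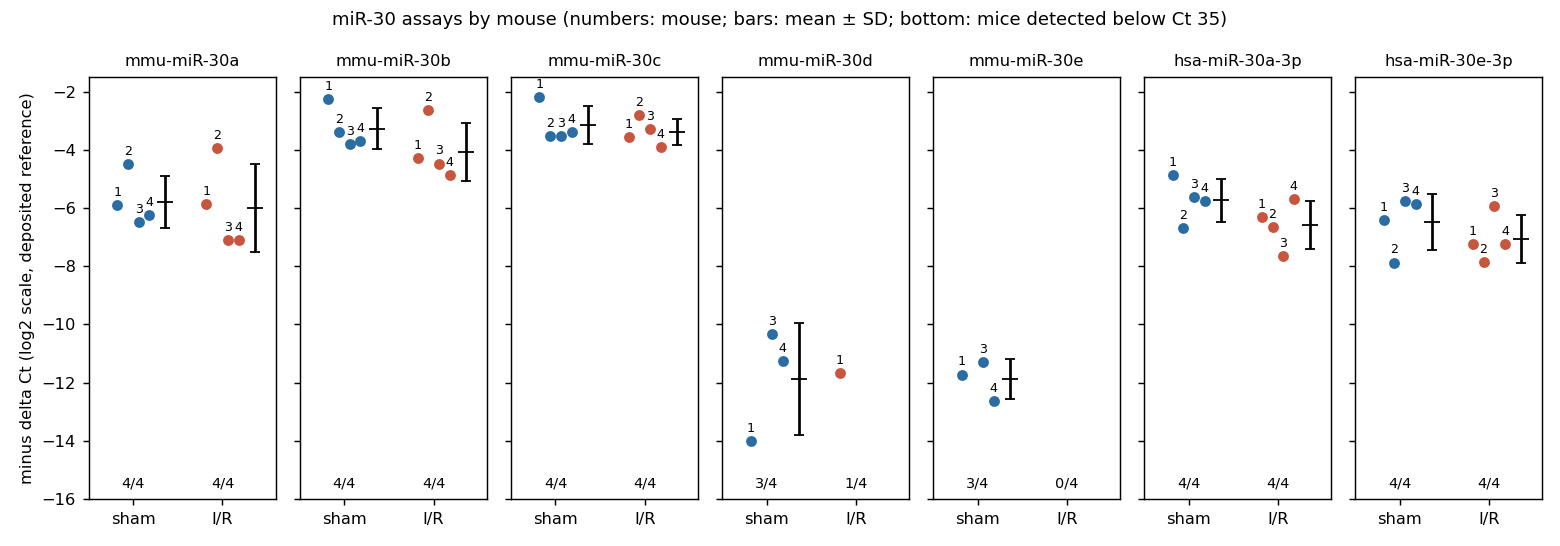
Minus delta Ct (log2 scale, deposited reference) of the 7 miR-30 assays in each mouse, sham in blue and ischemia/reperfusion (I/R) in red; numbers beside the points are mouse numbers, bars are the mean ± SD of the detected values, and the fraction at the bottom is the number of mice detected below Ct 35. The groups overlap for the 5 assays detected in all mice, and miR-30e has 3 sham values and no ischemia/reperfusion value.

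The direction of these differences depended on the reference. With the 54 fully detected miRNAs as reference, by their mean Ct, 2 of the 5 members and 41 of the 72 tested miRNAs were lower. The median of the members was 0.067, beside -0.24 for all 72. miR-30a (0.086), miR-30c (0.067) and miR-30e-3p (0.081) were then higher after ischemia/reperfusion, while miR-30b (-0.48) and miR-30a-3p (-0.17) stayed lower. Against the control assays 5 of 5 members and 48 of the 72 were lower, with a median of -0.30 for the members beside -0.61 for all 72. Without a reference 5 of 5 members and 65 of the 72 were lower, with a median of -1.63 for the members beside -1.93 for all 72. For assays detected in every mouse, a change of reference moves all those of a card alike, so their order within the card stays. The 2 cards moved by different amounts, because only the deposited reference differs by card. From the deposited reference to the mean of the 54 miRNAs, miR-30b went from -0.79 to -0.48 and miR-30a-3p from -0.84 to -0.17. The place of the members among the miRNAs of both cards thus depended on the reference. No member passed an adjusted limma p of 0.05 under any of the 4 references.

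**Figure D4:**
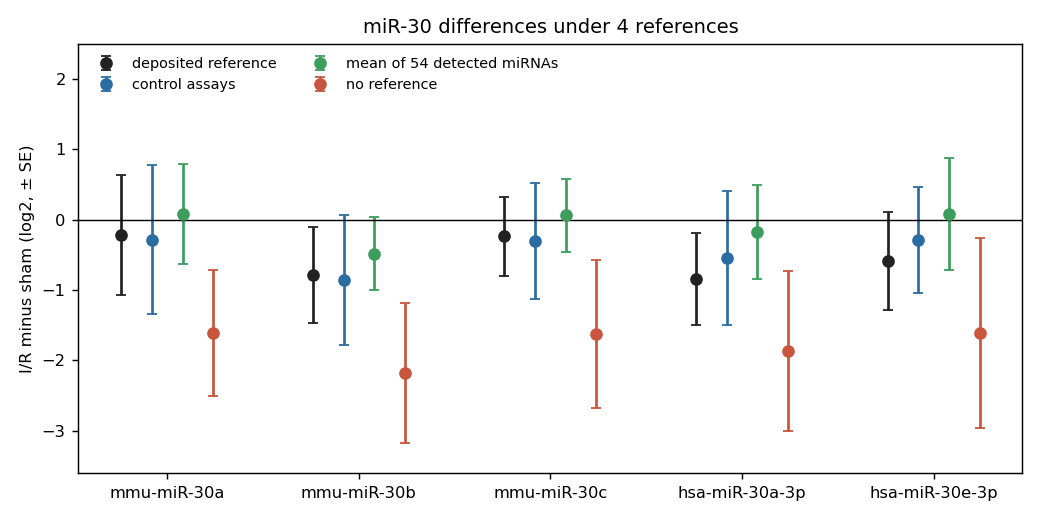
Log2 difference (ischemia/reperfusion minus sham, with the SE from limma) of the 5 tested miR-30 assays with 4 references: the deposited value, the control assays, the mean of the 54 miRNAs detected in every mouse, and none. The differences without a reference are the lowest for each assay, and 3 assays lie above 0 against the mean of the detected miRNAs.

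miR-30d and miR-30e, the seldom detected guide strands, were outside the test because too few ischemia/reperfusion mice had a value. miR-30e had a Ct of 32.4, 30.3 and 30.6 in sham mice 1, 3 and 4 and none in sham mouse 2 or in any ischemia/reperfusion mouse. miR-30d had a Ct of 34.7, 29.3 and 29.2 in sham mice 1, 3 and 4. After ischemia/reperfusion, miR-30d had a Ct of 32.7 in mouse 1, a Ct of 38.8 in mouse 2, over the detection limit, and none in mice 3 and 4. Both assays were thus read in the same 3 sham mice. Detection in 3 of 4 mice of the sham group against 0 of 4 of the other gave a Fisher's exact p of 0.143 for miR-30e, and 3 of 4 against 1 of 4 gave 0.486 for miR-30d, both two-sided and both 1 after adjustment over the 133 assays detected in 1 to 7 mice. With 4 against 4 mice, only 4 of 4 against 0 of 4 can fall under 0.05, and 0 of the 133 assays did so after adjustment (0%).

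Other assays shared this direction. Detection in 3 or 4 sham mice and in 0 or 1 ischemia/reperfusion mice was found for 25 of the 750 assays (3.33%). miR-30d and miR-30e were among them. Of the 750 assays, 563 were detected in no mouse and 54 in every mouse, so these could not show the pattern. The 25 thus all lie among the 133 assays detected in some but not all mice. The reverse pattern was found for miR-212 (0 sham and 3 ischemia/reperfusion mice) and miR-101a (1 and 3). The 3 sham mice with miR-30e were those with the most detected assays of all 8 mice, 127, 142 and 163. The ischemia/reperfusion mouse with miR-30d had the next highest number, 98. The part of overall detection in these results was not tested. Without sham mouse 2, the mouse with 75 detected assays, miR-30e was detected in all remaining sham mice and in none of the 4 ischemia/reperfusion mice, a difference of -100 percentage points. For miR-30d the difference in detection was then -75 percentage points, as it also was without ischemia/reperfusion mouse 1, beside -50 with all mice. That setting leaves out the only sham mouse without either miRNA, so it is no separate test.

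With Ct 35 in the wells not detected, miR-30e was at -12.06 ± 0.66 in sham mice and at -13.60 ± 0.80 in ischemia/reperfusion mice (SD, n = 4 each). miR-30d was then at -12.04 ± 1.61 and -13.03 ± 1.18. These values carry no test, because both assays entered through the sham group. The value set for a missing well also fixes much of the difference. As miR-30e had no Ct in any ischemia/reperfusion mouse, its mean and SD in that group come only from Ct 35 and the reference of the first card. They hold no measurement of miR-30e.

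In the authors' deposited table, fold changes are listed for 6 of the 7 members and none for miR-30e. For miR-30a, miR-30b, miR-30c, miR-30a-3p and miR-30e-3p, the authors' deposited table lists folds of 0.861, 0.580, 0.849, 0.558 and 0.665, the same as 2 to the power of the log2 differences above. For miR-30d, the authors' deposited table lists a fold of 42452. The deposited delta Ct of miR-30d in ischemia/reperfusion mice 3 and 4 was -20.52 and -21.67, although neither well had a Ct, and each value equals a Ct of 0 minus the reference. Without these 2 wells, the fold of miR-30d was 0.216, from 3 sham and 2 ischemia/reperfusion wells, a change in direction. Leaving out the well at Ct 38.8 as well gave 1.13, from 3 sham wells and 1 ischemia/reperfusion well. The direction of the fold of miR-30d thus depends on which of these wells are kept.

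Members that share a hairpin or a genomic cluster were then compared within each mouse, which removes the reference for assays of the same card. In the chromosome 15 cluster, miR-30b was above miR-30d in each of the 4 mice that had both, by 11.77, 6.52 and 7.56 in sham mice 1, 3 and 4 and by 7.39 in ischemia/reperfusion mouse 1. In the Nfyc cluster, miR-30c was above miR-30e by 9.54, 7.78 and 9.27 in sham mice 1, 3 and 4, although miR-30c also comes from Mir30c-2 on chromosome 1. These gaps were larger than the range of any of the 5 fully detected members over the mice, at most 3.18, and the efficiency of the assays was not tested as a part of them.

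The arms of the Mir30e hairpin were read differently. The guide assay miR-30e was detected in 3 of 8 mice and the assay of the opposite strand, miR-30e-3p, in 8 of 8. In sham mice 1, 3 and 4, which had both, miR-30e-3p lay above miR-30e by 5.31, 5.52 and 6.79 on the minus delta Ct scale, with a raw Ct that was 4.50, 4.31 and 5.90 cycles earlier. The near-identical guide miR-30a lay above miR-30e in the same 3 mice by 4.81 to 6.39. The arms of the Mir30a hairpin had no such gap, with a difference between miR-30a and miR-30a-3p of -0.05 ± 1.52 in sham mice and 0.58 ± 1.70 in ischemia/reperfusion mice (SD, n = 4 each). For both hairpins, the arms were read on different cards. In sham mice, the control assay snoRNA135 had a mean Ct of 29.1 on the first card and 34.1 on the second. The part of the cards in the differences between arms was not tested. Other strands of the hairpins, read by 4 further assays, were detected in 1 well in all, at Ct 34.3 for mmu-miR-30b#.

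Of 7 pairs of members compared within the mouse, 4 had at least 3 values in each group and were tested between groups, by an exact two-sided permutation test with Benjamini-Hochberg adjustment over the 4 pairs. miR-30b relative to miR-30c was at -0.07, 0.16, -0.28 and -0.31 in sham mice 1 to 4. In ischemia/reperfusion mice 1 to 4 it was at -0.74, 0.19, -1.17 and -0.98. The pair was nearly equal in sham mice, and miR-30b was lower in ischemia/reperfusion mice 1, 3 and 4 but not in mouse 2. The difference between groups was -0.55 ± 0.32 (SE, n = 4 per group; exact permutation p = 0.171, adjusted p = 0.686). Without ischemia/reperfusion mouse 2, which had the only positive value of its group, it was -0.84 (exact permutation p = 0.0286, adjusted p = 0.114). miR-30a relative to miR-30b differed by 0.57 ± 0.61 (SE; exact permutation p = 0.429, adjusted p = 0.800), and miR-30a relative to miR-30c by 0.02 ± 0.83 (SE; exact permutation p = 1, adjusted p = 1). miR-30a relative to its own opposite strand, miR-30a-3p, differed by 0.63 ± 1.14 (SE; exact permutation p = 0.600, adjusted p = 0.800). Without sham mouse 2, miR-30a differed by 1.04 relative to miR-30b, by 0.58 relative to miR-30c and by 1.38 relative to miR-30a-3p. Without sham mouse 1, miR-30a differed by 0.19 relative to miR-30b and by -0.34 relative to miR-30c. Without ischemia/reperfusion mouse 2 these were 0.36 and -0.48. No pair passed the test, which does not show that the members moved alike.

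**Figure D5:**
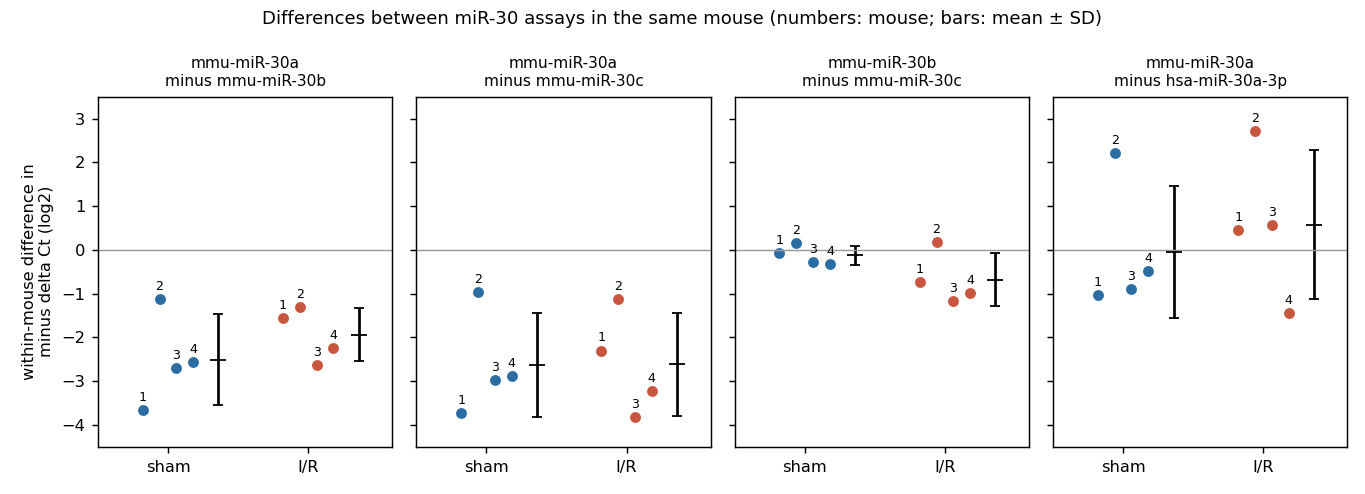
Difference in minus delta Ct (log2) between 2 miR-30 assays of the same mouse for the 4 tested pairs, sham in blue and ischemia/reperfusion (I/R) in red; numbers are mouse numbers and bars are the mean ± SD of 4 mice. miR-30b and miR-30c are within 0.31 of each other in sham mice, and mouse 2 of each group has the highest value of miR-30a relative to miR-30a-3p, 2.20 and 2.72.

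Over the 8 mice, miR-30b and miR-30c had the highest Pearson's r of the 10 pairs among the 5 members, r = 0.87 (exact permutation p = 0.00404, adjusted p = 0.0404) and Spearman's rho = 0.69 (exact permutation p = 0.0694, adjusted p = 0.277). These guide strands come from different chromosomes. The reference of the first card enters both values of a mouse, and the permutation breaks that shared part as well. The p-values of pairs on the same card thus cannot tell a relation of the miRNAs from the shared reference. Without sham mouse 1 and ischemia/reperfusion mouse 4, the mice farthest from the median of miR-30b, r was 0.66 (exact permutation p = 0.183, n = 6), so the relation rests partly on those mice. By rank, miR-30a and miR-30b were the closest pair, with rho = 0.74 (exact permutation p = 0.0458, adjusted p = 0.277), r = 0.68 (exact permutation p = 0.0623, adjusted p = 0.208), and r = 0.67 without the 2 farthest mice. miR-30a-3p and miR-30e-3p had r = 0.20 (exact permutation p = 0.644, adjusted p = 0.815) and rho = 0.45 (exact permutation p = 0.267, adjusted p = 0.669), and r = 0.83 without the 2 farthest mice. The strands of 1 hairpin, miR-30a and miR-30a-3p, had r = -0.14 (exact permutation p = 0.734, adjusted p = 0.815) and rho = -0.26 (exact permutation p = 0.536, adjusted p = 0.738), and r = 0.50 without the 2 mice farthest from the median of miR-30a. miR-30a and miR-30e-3p had r = -0.71 (exact permutation p = 0.0489, adjusted p = 0.208) and rho = -0.67 (exact permutation p = 0.0831, adjusted p = 0.277), and r = -0.10 without the 2 farthest mice, so that relation rests on those mice. In raw Ct, which also follows the general Ct level of each mouse, r was positive for all 10 pairs. It ranged from 0.62 for miR-30a and miR-30e-3p to 0.95 for miR-30b and miR-30c, with 0.63 for miR-30a and miR-30a-3p. The negative signs above thus depended on subtracting the reference.

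The miRNAs whose pattern over the 8 mice was most like the mean of the 5 members were miR-191 (r = 0.92), miR-145 (0.87), miR-29c (0.80), miR-24 (0.73) and miR-19b (0.73), out of 49 other miRNAs detected in every mouse. The median r over the 49 was 0.38. All 5 of these assays lie on the first card, as do 3 of the 5 members, and share its reference, so r is given as a description. Their log2 differences after ischemia/reperfusion were -1.06, -2.09, -1.07, -0.81 and -0.41, with SE between 0.57 and 0.87.

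Other epithelial miRNAs were read from a list of 10 tubule and epithelial markers apart from miR-30, covered by 12 assays, of which 4 were detected in any mouse. Between 0 and 4 of these assays were detected per sham mouse and between 0 and 2 per ischemia/reperfusion mouse. The miR-200 family members miR-200a, miR-200b, miR-200c, miR-141 and miR-429, which mark epithelium, had 0 detected wells. Wells below Ct 35 for miR-203 and miR-204 came from sham mice 1, 3 and 4, the mice that also had miR-30d and miR-30e, and from ischemia/reperfusion mice 2 and 3. The tubule miRNA miR-194 had a Ct of 20.5 in sham mouse 3 and 23.7 in sham mouse 4, and miR-192 a Ct of 29.8 in sham mouse 4. In sham mouse 2 and ischemia/reperfusion mice 1 and 4, where none of the 12 assays was detected, miR-30a, miR-30b and miR-30c had Ct values between 24.6 and 28.8. Ischemia/reperfusion mouse 2 had the highest miR-203 (-4.13 on the minus delta Ct scale) and miR-204 (-4.83) of the 5 mice in which they were detected, and the highest miR-30a (-3.93) of all 8 mice. Sham mouse 2, where none of the 12 assays was detected, had the next highest miR-30a (-4.48). In raw Ct, miR-30a (24.2) and miR-203 (26.2) were earliest in sham mouse 4. Raw miR-204 had a Ct of 27.2 both in that mouse and in ischemia/reperfusion mouse 2. The part of epithelial RNA in the levels of the miR-30 members was not tested.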

How the data were processed

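Per the labels' protocols, cDNA was measured by real-time PCR on a 7900HT Fast instrument. The authors deposited Ct values, delta Ct values on a log2 scale and fold changes as a ratio. The reference RNA, card type and software were not given in the sources used here. Deposited delta Ct equalled Ct minus 1 reference per mouse and card within 7.11e-15 cycles. The 13 wells with a deposited delta Ct but no Ct were treated as missing. Repeated wells were averaged. Groups were compared with limma 3.58.1 (lmFit, eBayes) in R 4.3.3, two-sided, and single values with exact permutation tests over 70 assignments. The fit was tested on simulated data. Each sample is 1 mouse, so precision rests on 4 mice per group, and the number of wells per value was not given in the sources used here. Same-numbered sham and ischemia/reperfusion mice are different animals. All 7 members are named, as are the 5 miRNAs most like their mean. Further miRNAs in the text were picked with their values in view. Members, lists and markers were chosen with earlier results of these data known. Alternatives were other references, detection limits, fillings of missing wells, filters, mouse number as a block, exact tests and omission of each mouse in turn.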

Additional observations from a re-analysis of the deposited data

Results flagged for a closer look

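In sham mice, miR-30c of mouse 1 lay far from the other 3, with a gap that was 0.885 of the group's range (-2.19 against -3.53 to -3.37). In sham mice, miR-30a relative to miR-30a-3p was far higher in mouse 2 than in the others, with a gap of 0.834 of the range (2.20 against -1.03 to -0.49). These came from 18 groups of 4 mice examined, and chance alone flags about 1 group in 20. mmu-miR-30b#, an assay outside the comparisons, was detected in 1 ischemia/reperfusion mouse, at Ct 34.3, and in 0 of 4 sham mice.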

How the results depend on the processing

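No group comparison of a miR-30 member or pair passed its adjusted threshold under any alternative run. Among the 5 members of the main test, the lowest adjusted p was 0.173 (limma), for miR-30b without a reference. This minimum does not cover miR-30d and miR-30e. For a pair the lowest was 0.114, miR-30b relative to miR-30c without ischemia/reperfusion mouse 2 (exact permutation). The value for the pair is the lowest that 1 pair alone can reach, so the pairs could not pass singly. With the mean of the miRNAs seen in every mouse as reference, miR-30a (0.086), miR-30c (0.067) and miR-30e-3p (0.081) turned positive, and the cause was not tested. When each mouse was left out, miR-30a ranged from -0.91 to 0.22, miR-30c from -0.43 to 0.086, miR-30a relative to miR-30c from -0.48 to 0.58 and miR-30a relative to miR-30a-3p from -0.089 to 1.38. miR-30a relative to miR-30b ranged from 0.19 to 1.04 and miR-30b relative to miR-30c from -0.84 to -0.39. miR-30b (-1.27 to -0.45), miR-30a-3p (-1.16 to -0.48) and miR-30e-3p (-1.05 to -0.32) kept their sign when each mouse was left out. The limma count over all miRNAs was 0 to 1 when each mouse was left out, 1 with no detection limit and 1 with Ct 35 in wells not detected. The single calls were hsa-miR-421 in the last 2 settings and miR-199a-3p without sham mouse 2, and no member was called. With mouse number as a block, limma gave 0 calls, with an adjusted p of 0.499 for miR-30b. The block cannot change the difference of an assay detected in every mouse, only its SE. The SE went from 0.86 to 0.54 for miR-30a and from 0.70 to 0.54 for miR-30e-3p. It moved little for miR-30b (0.68 to 0.66), miR-30c (0.57 to 0.59) and miR-30a-3p (0.65 to 0.63). Same-numbered mice had correlations of -0.38, -0.15, 0.020 and -0.25 between their deviations, so the numbers were not taken as pairs.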

Other observations

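Sham mouse 2 and ischemia/reperfusion mouse 2, which are different animals, had the highest miR-30a of their groups (-4.48 and -3.93 on the minus delta Ct scale) together with the lowest miR-30e-3p of their groups (-7.87 and -7.86). In raw Ct, miR-30a was earlier than miR-30e-3p by 3.98 and 4.19 cycles in these mice. In the other 6 mice miR-30a ranged from 1.85 cycles earlier to 0.10 cycles later than miR-30e-3p. The pattern was seen after the values were examined and was not tested.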
